A study of Mus musculus with 6 samples.

Results

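The naive pluripotency factors described here are 10 genes for transcription regulators, Klf2, Klf4, Klf5, Esrrb, Tbx3, Tfcp2l1, Zfp42, Prdm14, Nr0b1 and Gbx2. They were chosen by name, as factors of the naive state, and all 10 were measured among 22180 genes. Each gene is represented by a row of the array table that the platform annotation assigns to that gene alone, and where a gene has several such rows by the row with the highest mean. Among the 10 genes this choice had to be made for Gbx2, which has 2 rows.

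The RNA came from mouse embryonic stem cells (ESCs) with both copies of Dgcr8 knocked out. Dgcr8 is the partner of the nuclease Drosha, and cells without it make no canonical miRNAs, so the knockout is shared by all 6 samples. In 3 samples, called control hairpin, the cells carried a control hairpin. In the other 3, called miR-302, they carried a miR-302 hairpin, which the source field of the labels describes as mimics of the miRNA. The labels do not say which member of the miR-302 family was used, how long it was expressed or whether the cells came from a single clone, and the series title names p53 activity and differentiation potential as its subject. The design text calls the samples biologically independent. Values are log2 expression levels from a single-colour array, so a difference of 1 is a 2-fold difference, and levels of different genes are not compared with each other because their probes differ.

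The naive state is the condition of the epiblast before implantation, and mouse ESCs cultured with the cytokine LIF are its usual model. Its transcription factors sit downstream of several inputs. LIF acts through STAT3 on Klf4, Tfcp2l1 and Gbx2 and through PI3K on Tbx3, relief from the repressor Tcf7l1 acts on Esrrb, and FGF and ERK signalling opposes the network. The factors are partly redundant, and together they sustain Pou5f1, Sox2 and Nanog.

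The miR-302 family is abundant in pluripotent cells. Its mature 3′ arms are shown because they are the agent that separates the groups. RefSeq's table for GRCm38.p6 listed 3 of them, all from chromosome 3, and bases 2 to 8, the seed that pairs with targets, are in capitals.
mmu-miR-302b-3p: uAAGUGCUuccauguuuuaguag
mmu-miR-302c-3p: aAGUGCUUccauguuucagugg
mmu-miR-302d-3p: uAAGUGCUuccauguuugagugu
In this table mmu-miR-302b-3p and mmu-miR-302d-3p share a seed, and the entry of mmu-miR-302c-3p, 22 bases long against 23, has its seed shifted by a base.

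The 6 arrays had medians between 5.60 and 5.62. Between arrays of a group the correlation over all genes was 0.996 or higher for every pair without miR-302 replicate 1, and 0.990 for both pairs with it, so that array was set off from its 2 partners. Results that rest on it are given with and without it. The core factors Pou5f1 (9.25 to 9.33 in control hairpin and 9.22 to 9.48 in miR-302 samples) and Nanog (12.82 to 12.87 and 12.65 to 12.92) were present on every array and did not pass the test (limma, adjusted p = 0.819 and 0.501). Dgcr8 shares its row with another gene and was not analysed here.

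With miR-302, Klf2 was 1.77-fold lower and Gbx2 1.29-fold higher, and the other 8 naive factors did not pass the test (limma, Benjamini-Hochberg adjusted over all genes, threshold 0.05). Among all genes tested, 16.4% were called, 7.18% higher and 9.25% lower, so 1 higher and 1 lower of 10 is near the share in all genes. The estimates of 6 factors were below 0 and those of 4 above it, with a median log2 fold change of −0.14 against 0.0067 over all genes. The values of the groups did not overlap for 8 of the 10, all except Esrrb and Tbx3, while this held for 35.8% of all genes and for 53.7% of the 11090 genes at or above the median level, to which all 10 factors belong. With 3 arrays a group, an exact permutation test of a single gene cannot give a p below 0.1, two-sided, and it gave that value for each of these 8 factors.

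The calls rested on few arrays. Without miR-302 replicate 1, 3 factors were called lower (Klf2, Prdm14 and Zfp42) and 1 higher (Gbx2), where 13.1% and 11.2% of all genes were called in these directions. Leaving out any 1 of the other 5 arrays ended the call of Klf2, and leaving out any array except miR-302 replicate 1 or 2 ended that of Gbx2. With the replicate number as a block, neither was called (adjusted p = 0.0501 for Klf2 and 0.0519 for Gbx2). At that setting 10.3% of all genes were called at an adjusted p under 0.05. At an unadjusted p under 0.05 in limma there were 6 factors, as many as without the block. The share of all genes at an unadjusted p under 0.05 was not counted, so the 6 cannot be set against 10.3%.

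**Figure D1:**
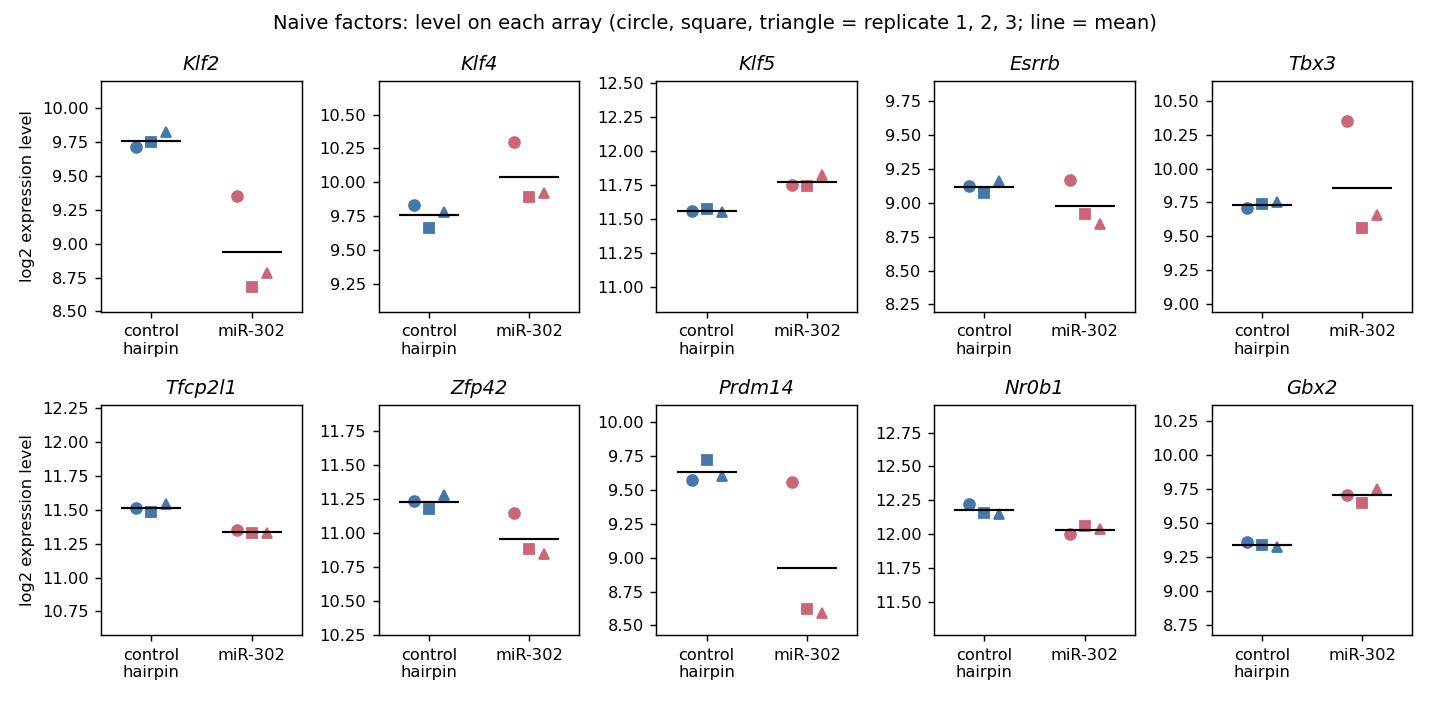
Log2 expression level of the 10 naive factors (y axis, all panels span the same height) on each array of the control hairpin (blue) and miR-302 (red) groups; circles, squares and triangles are replicates 1, 2 and 3, and lines are group means. Klf2 lies at 8.68 to 9.35 with miR-302, below all control values of 9.71 to 9.82, and Gbx2 at 9.65 to 9.75, above the control values of 9.32 to 9.36.

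Of the Krüppel-like factors, zinc finger proteins that bind GC-rich sites and can replace one another in ESC self-renewal, Klf2 fell. Its level was 9.71, 9.75 and 9.82 in the control hairpin samples and 9.35, 8.68 and 8.78 in the miR-302 samples. All 3 miR-302 values lay below the controls, replicate 1 the least so. The log2 change was −0.82 ± 0.17 (SE; limma, adjusted p = 0.0218; 95% interval −1.24 to −0.41). It was −1.03 without miR-302 replicate 1 (adjusted p = 0.000535).

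Klf4, one of the original reprogramming factors, measured 9.83, 9.66 and 9.78 in control hairpin samples and 10.30, 9.89 and 9.92 with miR-302. The groups did not overlap, with replicate 1 the highest, but the difference of 0.28 ± 0.12 (SE) was not called (limma, adjusted p = 0.187; 95% interval −0.02 to 0.58). Without replicate 1 it was 0.15.

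Klf5, which is also a factor of the trophectoderm, varied little between arrays. It was 11.56, 11.57 and 11.55 in control hairpin samples and 11.75, 11.74 and 11.82 with miR-302. The groups did not overlap, and the difference of 0.21 ± 0.06 (SE) did not pass the test (limma, adjusted p = 0.0730). It was 0.22 without miR-302 replicate 1 (adjusted p = 0.0548). It passed when genes below the median level were left out (adjusted p = 0.0181), where 38.7% of the genes tested did. In all, Klf5 was called at 4 of 10 alternative settings that kept every array, and in 0 of 6 fits with an array left out.

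Within an array, Klf2 can be set against its relatives, of which neither was called. The difference between the log2 levels of Klf4 and Klf2 was 1.10 larger with miR-302 than in control hairpin samples, and it lay 0.95, 1.21 and 1.14 above its control mean on the 3 miR-302 arrays. The difference between Klf5 and Klf2 was 1.03 larger, and 1.25 without replicate 1. That between Klf5 and Klf4 differed by −0.07. These 3 pairs were set up after the values were seen and are given with no test.

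**Figure D2:**
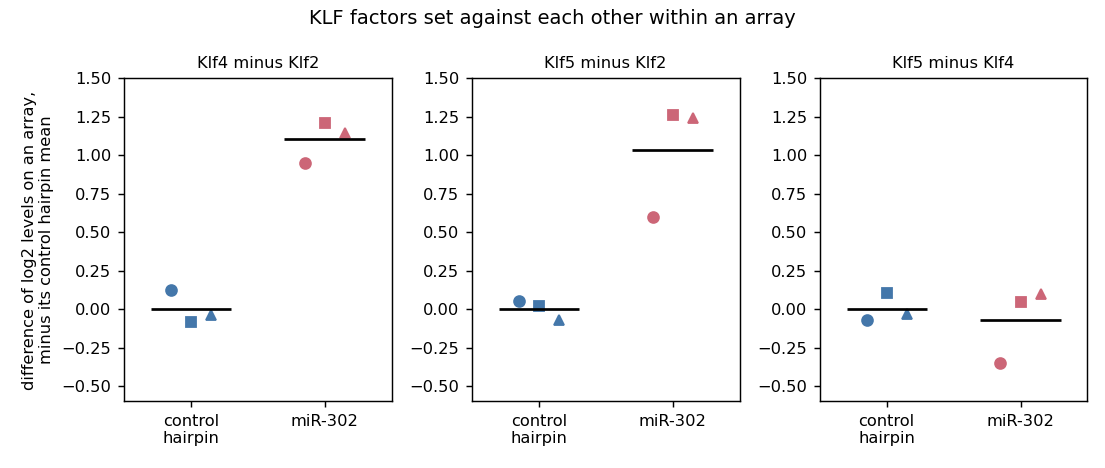
Difference between the log2 levels of a pair of KLF factors on the same array, minus the control hairpin mean of that difference (y axis), for control hairpin (blue) and miR-302 (red) arrays; symbols are replicates 1 (circle), 2 (square) and 3 (triangle), lines are means. Klf4 minus Klf2 is 0.95 to 1.21 on the miR-302 arrays, and Klf5 minus Klf4 spans 0 in both groups.

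Of 14 other KLF genes, 3 were called higher, 1 lower and 10 not called, with a median log2 fold change of −0.057. Of all genes, 7.18% were called higher and 9.25% lower. Klf12, a repressor of the family, rose 2.24-fold (limma, adjusted p = 0.000952). Klf15 and Klf16 rose by 0.82 ± 0.15 and 0.37 ± 0.09 (SE), and Klf13 changed by −0.44 ± 0.09. Over the 6 fits with an array left out, Klf12 was called 6 times, Klf15 4 times, Klf13 2 times and Klf16 1 time. Without miR-302 replicate 1 there were 5 higher and 3 lower, and without any 1 of the other arrays 1 or 2 higher and 0 or 1 lower.

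Esrrb, an orphan nuclear receptor that is a target of Tcf7l1 repression in ESCs, was 9.12, 9.07 and 9.16 in control hairpin samples. With miR-302 it was 9.17, 8.92 and 8.84. Replicate 1 lay above all controls and the other 2 below them, so the groups overlapped. The difference of −0.14 ± 0.10 (SE) was not called (limma, adjusted p = 0.408), nor was that of −0.24 without replicate 1 (adjusted p = 0.0540).

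Tfcp2l1, a grainyhead-like factor downstream of STAT3, was 11.51, 11.48 and 11.54 against 11.35, 11.33 and 11.33. The 3 miR-302 arrays agreed within 0.02 and all lay below the controls. The difference of −0.17 ± 0.06 (SE) did not pass the test (limma, adjusted p = 0.116; 95% interval −0.32 to −0.02). It passed with an intensity trend and a robust prior (adjusted p = 0.0119), where 20.7% of all genes did. It also passed when genes below the median level were left out (adjusted p = 0.0303), where 38.7% of the genes tested did. In all, it was called at 3 of 10 alternative settings that kept every array, and in 0 of 6 fits with an array left out.

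Tbx3, a T-box factor, had control values of 9.71, 9.74 and 9.75. In the miR-302 samples it was 10.35, 9.56 and 9.66, so replicate 1 was above all controls and the other 2 were below all of them. Its estimate of 0.12 ± 0.20 (SE; limma, adjusted p = 0.741) became −0.12 without replicate 1 (adjusted p = 0.244), and no direction can be given for it.

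Zfp42, known as Rex1, is a zinc finger protein related to Yy1 and the usual reporter gene of the naive state. It measured 11.24, 11.18 and 11.28 in control hairpin samples and 11.15, 10.88 and 10.85 with miR-302. All miR-302 values lay below the controls. The difference of −0.27 ± 0.10 (SE) was not called (limma, adjusted p = 0.112), and without replicate 1 it was −0.37 and called (adjusted p = 0.0119).

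Prdm14, a PR domain protein that represses DNA methyltransferase genes and FGF receptor signalling in ESCs, showed the widest spread among miR-302 arrays of the 10 factors. Control values were 9.57, 9.72 and 9.60. With miR-302 they were 9.56, 8.62 and 8.59, so replicate 1 lay at the edge of the control range and the other 2 about 1 log2 unit below it. The difference was −0.71 ± 0.25 (SE; limma, adjusted p = 0.112). Without replicate 1 it was −1.03 and called (adjusted p = 0.000598).

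Nr0b1, known as Dax1, is an atypical nuclear receptor without a usual DNA-binding domain that partners with Pou5f1. It was 12.22, 12.16 and 12.15 in control hairpin samples and 12.00, 12.06 and 12.04 with miR-302. The groups did not overlap, and the difference of −0.14 ± 0.07 (SE) was not called (limma, adjusted p = 0.195; 95% interval −0.30 to 0.01).

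Gbx2, a homeobox factor that sustains ESCs downstream of STAT3, rose. It was 9.36, 9.34 and 9.32 in control hairpin samples and 9.71, 9.65 and 9.75 with miR-302. All miR-302 values lay above the controls, and replicate 1 lay between the other 2. The log2 change was 0.36 ± 0.07 (SE; limma, adjusted p = 0.0133; 95% interval 0.21 to 0.52), and 0.36 without miR-302 replicate 1 (adjusted p = 0.0131). The second row annotated to Gbx2 did not show it: its values were 7.03, 7.02 and 7.04 against 7.08, 6.82 and 7.10, a difference of −0.03 ± 0.09 (SE; limma, adjusted p = 0.873 over 23521 rows). With the mean of both rows, Gbx2 was not called (adjusted p = 0.201). Which transcripts each row measures was not analysed here.

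**Figure D3:**
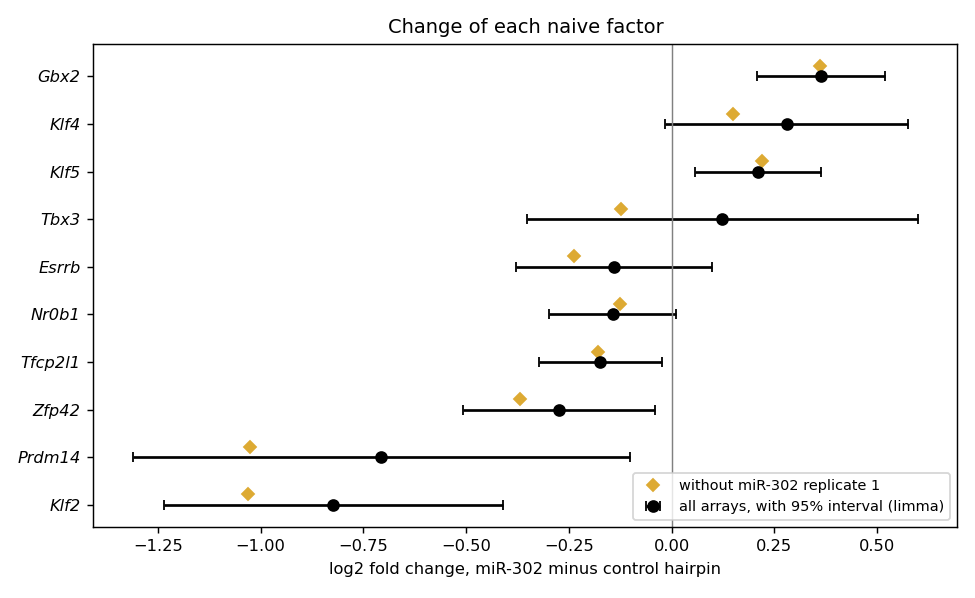
Log2 fold change of each naive factor, miR-302 minus control hairpin (x axis), with all 6 arrays (black circles; bars are limma's 95% intervals) and without miR-302 replicate 1 (yellow diamonds). Klf2 and Gbx2 are the called factors, Prdm14 moves from −0.71 to −1.03 and Tbx3 from 0.12 to −0.12 when that array is left out.

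The naive factors differed in how far miR-302 replicate 1 lay from the other 2 miR-302 arrays. For Prdm14 it was 0.96 above the mean of replicates 2 and 3, for Tbx3 0.74, for Klf2 0.62 and for Klf4 0.40. Esrrb and Zfp42 followed with 0.29 each. For Klf5, Nr0b1, Tfcp2l1 and Gbx2 the same distance was 0.05 or less in either direction. Of all genes, 98.4% had a smaller distance than Prdm14, 96.7% than Tbx3 and 94.7% than Klf2, whereas for Gbx2 and Tfcp2l1 these shares were 4.53% and 6.56%. So 6 factors were higher in replicate 1 than in its partners, and 4 measured nearly the same in all 3. This division was seen in the values and was not tested.

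Some lists of markers of other states moved with that array, and others did not. The mean level of the 12 core pluripotency genes was 10.61 in miR-302 replicate 1, 10.36 and 10.41 in replicates 2 and 3, and 10.35 to 10.38 in control hairpin samples. The mean of 14 trophectoderm markers was 7.47 in replicate 1 and 8.11 and 8.10 in the others, with 6.34 to 6.47 in control hairpin samples. For 19 formative and primed state markers, described below, it was 7.44 in replicate 1 and 7.40 and 7.39 in the others. The part of any of these lists in the values of the naive factors was not tested. In RNA from whole cultures, fewer cells with a factor and less of its RNA per cell cannot be told apart.

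**Figure D4:**
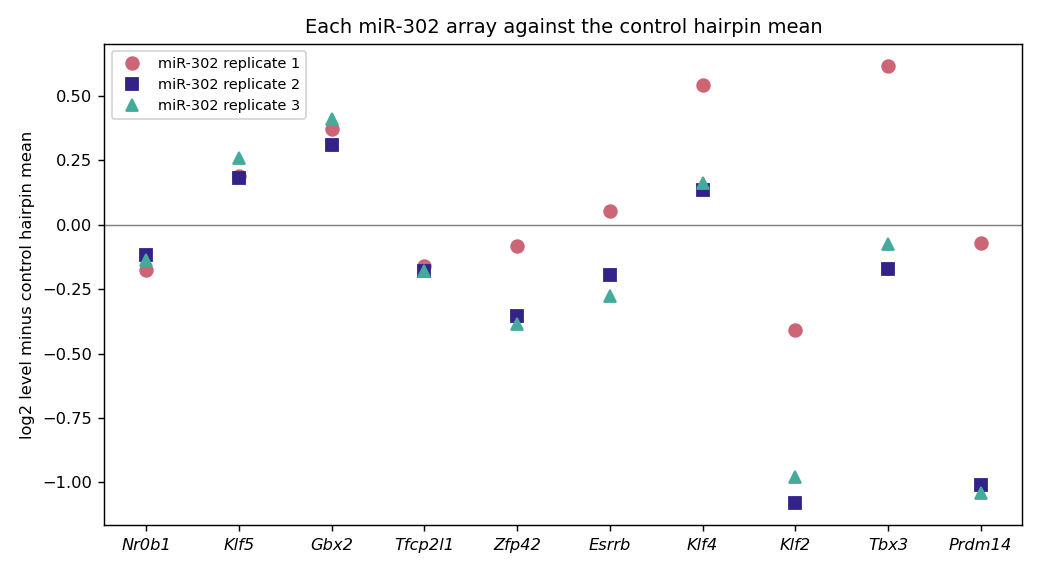
Log2 level of each naive factor on each miR-302 array minus the control hairpin mean (y axis); circles, squares and triangles are replicates 1, 2 and 3, and genes are ordered by the distance of replicate 1 from the mean of the other 2. On the left the 3 arrays nearly coincide, and on the right Prdm14 is −0.07 in replicate 1 and −1.01 and −1.04 in the others.

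The start regions of the called factors Klf2 and Gbx2 and of Zfp42 are printed to show the sequence before genes of one network. Klf2 was called lower and Gbx2 higher. Zfp42 was, like Klf2, lower on every miR-302 array, but was not called. RefSeq's promoter table for GRCm38.p6 held 7 of the 10 factors. Windows are the 250 bases before the start, 5′ to 3′ on the gene's strand: chr8:72318812-72319061, plus strand for Klf2, chr1:89931177-89931426, minus strand for Gbx2 and chr8:43307010-43307259, minus strand for Zfp42. Capitals mark matches on either strand to TTCNNNGAA (STAT), NAAGGTCA (estrogen-related receptors), GGGNGTG (KLF and SP factors), ATGCAAAT (the octamer of POU factors such as Pou5f1) and CTTTGA (TCF and LEF factors).
Klf2: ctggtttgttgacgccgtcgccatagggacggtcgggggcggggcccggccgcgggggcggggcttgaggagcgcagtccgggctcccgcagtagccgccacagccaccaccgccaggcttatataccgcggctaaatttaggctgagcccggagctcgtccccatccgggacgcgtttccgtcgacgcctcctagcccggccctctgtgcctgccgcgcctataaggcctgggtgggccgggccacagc
Gbx2: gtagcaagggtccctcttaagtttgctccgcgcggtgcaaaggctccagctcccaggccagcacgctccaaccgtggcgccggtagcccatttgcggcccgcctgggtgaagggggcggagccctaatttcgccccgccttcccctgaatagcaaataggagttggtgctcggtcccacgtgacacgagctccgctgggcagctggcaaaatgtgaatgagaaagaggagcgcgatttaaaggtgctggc
Zfp42: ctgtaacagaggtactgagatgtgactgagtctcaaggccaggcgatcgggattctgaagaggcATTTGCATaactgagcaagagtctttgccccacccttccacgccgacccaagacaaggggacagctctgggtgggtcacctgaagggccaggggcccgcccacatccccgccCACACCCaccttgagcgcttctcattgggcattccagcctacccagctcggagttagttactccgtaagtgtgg
The windows of Klf2, Gbx2 and Klf4 held no match to these letters. Other GC-rich sites were not searched for. The run GGGCGG, on either strand, stands in the printed windows of Klf2, Gbx2 and Zfp42. The lack of a match thus does not mean that a window lacks GC-rich sites. That of Zfp42 held an octamer on the reverse strand, 179 to 186 bases before the start, which 1.6% of all 32851 windows have, and a KLF and SP match, which 26.1% have. The KLF and SP letters were also found before Esrrb, Nr0b1 and Tfcp2l1. The STAT letters were found in 1 of the 2 windows of Esrrb (7.02% of all windows), the TCF and LEF letters before Nr0b1 (13.8%), and the estrogen-related receptor letters before none of the 7 (4.07%). The 5 motifs do not share matched bases in the printed windows. A match is a description of the letters, and binding was not measured.

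The inputs of the network were counted in the same way. Among all genes 7.18% were called higher and 9.25% lower, shares that stand beside the counts of this list and those below. Of 18 measured genes of LIF and STAT3 signalling, 2 were called higher, 3 lower and 13 not called (median log2 fold change −0.097). All 18 lie at or above the median level. With only genes of that level tested, 3 and 4 of the 18 were called, where 16.4% and 22.4% of the genes tested were. Il6st, the gp130 subunit shared by LIF and related receptors, fell from 10.55 ± 0.03 (SD, n = 3) to 9.81 ± 0.25 (limma, adjusted p = 0.0114), and Socs1 and Jak2 changed by −0.53 ± 0.10 and −0.33 ± 0.09 (SE). Myc, which is also a STAT3 target in ESCs, rose 2.67-fold (adjusted p = 0.00373), and the phosphatase gene Ptpn11 by 0.55 ± 0.13 (SE). When each of the 6 arrays was left out in turn, the call of Il6st was lost 1 time, that of Socs1 3 times, that of Jak2 4 times and that of Ptpn11 5 times, while Myc was called each time. Without miR-302 replicate 1, 4 of the list were higher and 5 lower, and with another array left out 1 and 0 to 3.

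Of 15 genes of the FGF and ERK arm, 7 were called higher, 1 lower and 7 not called (median 0.21). Fgfr2, an FGF receptor that is also in the trophectoderm list, rose 3.74-fold (limma, adjusted p = 0.000427). Genes induced by ERK as its feedback inhibitors rose too: Dusp6 by 0.75 ± 0.13, Spry2 by 0.60 ± 0.07 and Spred1 by 0.49 ± 0.09 (SE), and the ERK-induced factor gene Etv4 by 0.57 ± 0.08. Egr1, an immediate early gene of the same pathway, was the member that was lower, by −0.42 ± 0.10 (SE; adjusted p = 0.0360), a call lost 4 times when the 6 arrays were left out in turn and also with the replicate block. Spry4 and Dusp4, also feedback inhibitors, rose by 0.48 and 1.02. Over the 6 fits with an array left out, Fgfr2, Dusp6, Spry2 and Etv4 were called 6 times. Spred1 was called 4 times, Spry4 2 times and Dusp4 1 time. Without miR-302 replicate 1, 8 of the list were higher and 2 lower, and with another array left out 4 to 6 and 0 or 1.

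Of 14 genes of the Wnt and GSK3 arm, 2 were called higher and none lower (limma; 5 and 1 at an unadjusted p under 0.05). Lef1 rose by 0.89 ± 0.20 and Cdx1 by 0.63 ± 0.13 (SE), calls that were each lost 4 times when the 6 arrays were left out in turn. Cdx1 has a mean below the median gene level. With miR-302 replicate 1 left out, 4 of this arm were higher and 1 lower, and 0 or 1 and 0 with another array left out. Of 11 genes known to help cells leave the naive state, 3 were called higher (Zfp706, Rbpj and Mbd3, by 0.53, 0.51 and 0.31) and none lower (2 at an unadjusted p under 0.05, limma). The call of Rbpj was lost 4 times and that of Mbd3 5 times over the same series of fits, and with the replicate block 1 gene was higher. Without replicate 1 of miR-302, 3 were higher and 2 (Flcn and Fnip1) lower, and with another array left out 1 or 2 were higher. Tcf7l1 itself, which is in both lists, was 10.77 to 10.84 in control hairpin samples and 10.97 to 11.17 with miR-302, and was not called (adjusted p = 0.0912).

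Of 19 other markers of the naive state, 1 was called higher, 3 lower and 15 not called (median −0.087), and without miR-302 replicate 1 these were 2 higher and 6 lower. With another array left out 1 was higher and 1 or 2 lower, and with the replicate block 1 and 1. Dppa3, which protects methylation marks in the early embryo, rose from 4.94 ± 0.05 to 6.25 ± 0.30 (SD, n = 3). The alkaline phosphatase gene Alpl fell from 10.94 ± 0.04 to 10.16 ± 0.17 (limma, adjusted p = 0.00391), and Spic and Manba changed by −0.89 ± 0.17 and −0.47 ± 0.11 (SE), calls lost 3 and 5 times when the 6 arrays were left out in turn. The means of Dppa3 and Spic lie below the median gene level of 6.16. With genes below that level left out, 0 of the list were higher and 4 lower. Of 12 core pluripotency genes, Lin28a was the called member, higher by 1.25 ± 0.07 (SE), and none was called lower (2 at an unadjusted p under 0.05, limma); 1 was without miR-302 replicate 1, Sox2 (adjusted p = 0.00627).

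Of 19 formative and primed state markers, genes used to mark cells after the naive state, 6 were called higher, 4 lower and 9 not called (median 0.18). Dnmt3b, a gene that Prdm14 is known to repress, rose from 9.08 ± 0.07 to 10.68 ± 0.15 (SD, n = 3; limma, adjusted p = 0.000349). In miR-302 replicate 1, Dnmt3b was 10.52, against 10.71 and 10.81 in replicates 2 and 3. Prdm14 was 9.56 in replicate 1, against 9.57 to 9.72 in control hairpin samples, and was not called. The relation of Dnmt3b to Prdm14 was not tested. Also called higher were Otx2, Wnt8a, Pou3f1, Fgf5 and Foxa2, by 0.77, 0.65, 0.45, 0.41 and 0.25. Over the 6 fits with an array left out they were called 3, 6, 2, 2 and 0 times. Wnt8a and Fgf5 have means below the median gene level. The Nodal antagonist genes Lefty1 and Lefty2 and the factor genes Zic2 and Zic5 were lower, by log2 changes from −2.97 to −0.84. Without miR-302 replicate 1, 8 of the list were higher and 5 lower, and with another array left out 2 to 4 and 4.

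Relatives of the other factors were measured too. Of 19 genes of the ESRR, TBX, grainyhead, YY, PRDM, NR0B, NR5A and GBX families and a Prdm14 partner, 3 were called higher, 2 lower and 14 not called (median 0.09). Prdm16, a relative of Prdm14 and Prdm1, changed by −1.07 ± 0.10 (SE; limma, adjusted p = 0.00146), and Nr0b2, the closest relative of Nr0b1, by −0.44 ± 0.09. Tbx4 and Yy1 were higher by 0.59 ± 0.14 and 0.28 ± 0.07, calls lost 4 and 5 times when the 6 arrays were left out in turn, and that of Nr0b2 was lost 3 times. The mean of Nr0b2 lies below the median gene level. With miR-302 replicate 1 left out, 4 of these relatives were higher and 2 lower. With another array left out 0 or 1 was higher and 1 or 2 lower, and with the replicate block 0 (limma; 5 higher at an unadjusted p under 0.05 without the block) and 2.

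**Figure D5:**
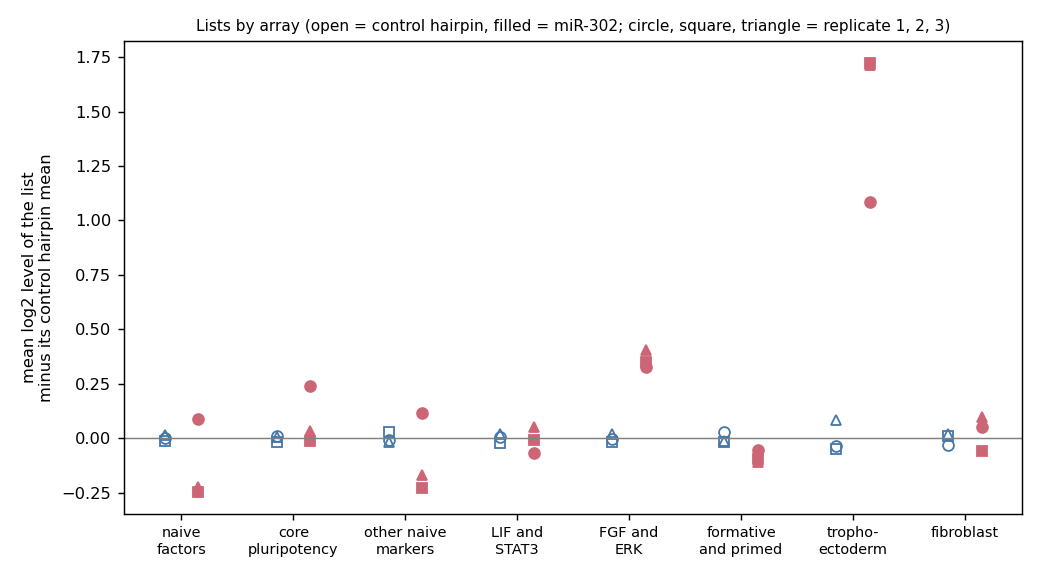
Mean log2 level of the measured genes of 8 lists on each array, minus the list's control hairpin mean (y axis); open blue symbols are control hairpin arrays, filled red symbols miR-302 arrays, and circles, squares and triangles replicates 1, 2 and 3. The naive factors lie above their control mean in miR-302 replicate 1 and below it in replicates 2 and 3, while the FGF and ERK and trophectoderm lists lie above it on all 3.

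Genes with the most similar course over the 6 arrays were sought among 10557 genes at or above the median level. For Klf2 they were Platr26, a non-coding RNA gene, Robo1, an axon guidance receptor gene, and Prcp, a peptidase gene, with Pearson correlations of 0.999, 0.998 and 0.998. All 3 were called lower, with log2 changes of −0.72, −0.96 and −0.33. For Gbx2 they were Ccdc137, R3hdm4 and Basp1, with correlations of 0.999, 0.998 and 0.997, and higher by 0.59, 0.31 and 0.38 on the log2 scale. With 6 arrays in 2 groups such values are a description.

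Among markers of other cell types, 11 of 14 trophectoderm genes were called higher and none lower (limma; none lower at an unadjusted p under 0.05), with a median log2 fold change of 1.42. They included Eomes and Gata3, higher by 1.36 ± 0.10 and 1.48 ± 0.12 (SE), and the number higher was 14 without miR-302 replicate 1 and 9 or 10 with another array left out. Klf5 and Esrrb are also expressed in that lineage. Of 16 fibroblast markers 1 was higher and 2 lower, and 1 and 4 without miR-302 replicate 1. Of the 16, 8 had a mean at or above the median gene level of 6.16. Among these, Fn1 (11.83 to 12.33) and Vim (11.83 to 12.53) were the highest of the list. Among those below that level were Postn (2.99 to 3.68), Lum (3.24 to 3.69) and Dcn (4.09 to 4.61). The list's mean level was 6.20 to 6.26 on control arrays and 6.18 to 6.33 on miR-302 arrays, and its part in the results was not tested.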

How the data were processed

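Biotin-labelled RNA of 6 samples was hybridised to single-colour arrays, per the labels. The authors processed the arrays with RMA (background correction, quantile normalization, probe summary), per the submitters' processing notes; its software is not given in the sources used here. Base 2, the usual output of RMA, is assumed for the deposited log2 values. All 6 columns were used. RMA makes arrays alike, so a shift of all genes cannot be seen, and low levels may be background.

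Of 33649 rows, 23521 name a single gene. They gave 22180 genes. The test was limma's (version 3.58.1, R 4.3.3; lmFit and eBayes, two-sided, Benjamini-Hochberg). SE is limma's moderated standard error. On simulated data for this comparison (22180 genes, 200 of them changed), 50.7%, 84.8% and 96.6% of genes changed 1.5-fold, 2-fold and 4-fold were recovered. Of 160 calls, 9 were false. In the real data 3643 genes were called, so these rates need not hold there. Of the naive factors, all but Klf2 and Prdm14 had estimates smaller than 1.5-fold.

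The members and the 13 other lists (209 distinct genes with the members, 196 measured) were chosen with earlier results of these data known, and no list was tested. Named are the members, up to 4 genes of a list by smallest p, Pou5f1, Nanog, Sox2, and the 3 genes most like each called member. Jak2, Spred1, Spry4, Dusp4, Egr1, Tcf7l1, Fnip1, Zic2, Gata4, Vim and Ddx4 lie outside that rule and were picked with their values in view. The same holds for Otx2, Wnt8a, Pou3f1, Fgf5, Foxa2, Postn and Lum. Promoter motifs were chosen after the data were seen. Alternatives were a replicate block, each array left out, a level filter, an intensity trend with a robust prior, median centring, quantile normalization, the mean of rows, every row, array weights, an unmoderated test and a minimum fold change of 1.2. Figures used matplotlib 3.10.9 in Python 3.11.15.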

Additional observations from a re-analysis of the deposited data

How the results depend on the processing

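The number of all genes called was 3643, and 1728 to 5395 when an array was left out, 2293 with the replicate block, 5621 with array weights, 2341 with an unmoderated test and 962 with a minimum fold change of 1.2. Of the naive factors, 0 or 1 was called higher and 0 to 3 lower when an array was left out. The shares of all genes were 11.2% and 13.1% without miR-302 replicate 1, and 3.09% to 3.88% and 4.7% to 5.48% with another array left out. No factor was called with the replicate block (6 at an unadjusted p under 0.05) or a minimum fold change of 1.2 (1 at an unadjusted p under 0.05, limma). Of all genes, 10.3% and 4.34% were called at these settings at an adjusted p under 0.05, shares that cannot be set against the unadjusted counts. Among genes at or above the median level, 2 were higher and 2 lower, where 16.4% and 22.4% of those genes were; with an intensity trend and a robust prior 2 and 4 (9.1% and 11.6% of all genes); with array weights 2 and 3 (11.8% and 13.5%); with an unmoderated test 2 and 1 (4.5% and 6.06%). With a gene's rows averaged 0 were higher and 1 lower (limma; 1 higher at an unadjusted p under 0.05), since the rows of Gbx2 disagree. Centring, quantile normalization and every row on its own gave 1 and 1. With rows averaged, centring and quantile normalization, 7.01%, 6.87% and 7.17% of all genes were higher and 9.13%, 9.36% and 9.01% lower. The median log2 fold change of the factors stayed between −0.16 and −0.11. Tbx3 was −0.053 with array weights, which gave miR-302 replicate 1 a weight of 0.28, and −0.12 to 0.27 when an array was left out. No other factor changed direction at any of these settings. The replicate numbers do not pair the arrays by the values: the deviations of same-numbered arrays from their group means correlated at 0.0085 to 0.019, and 2 of 3 control arrays correlated best with their own number. Detection is limited by 3 arrays a group, and signal over background was not used here.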

Other observations

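Prdm14 is also a factor of germ cell precursors. Of 9 markers of these cells, Prdm14 included, 2 were called higher (Dppa3 and Ddx4, limma) and 3 lower, 3 and 5 without miR-302 replicate 1, and 1 and 1 to 3 without another array. The receptor kinase gene Kit was 9.73, 9.78 and 9.82 in control hairpin samples and 9.08, 8.36 and 8.21 with miR-302, 2.34-fold lower (limma, adjusted p = 0.0119). As for Prdm14, replicate 1 was the miR-302 array closest to the controls. The interferon-induced membrane protein gene Ifitm3 fell from 12.58 ± 0.06 (SD, n = 3) to 12.01 ± 0.13, and Nanos3, an RNA-binding protein gene of early germ cells, from 7.78 ± 0.07 to 7.36 ± 0.17. Over the 6 fits with an array left out, Ifitm3 was called 6 times, Kit 5 times and Nanos3 2 times. Ddx4, a helicase gene of later germ cells, was 8.70 to 8.93 in control hairpin samples and 10.04, 9.34 and 9.33 with miR-302 (adjusted p = 0.0499), a call lost 5 times when the 6 arrays were left out in turn. Of 15 primitive endoderm markers, 5 were called higher and 2 lower, and the laminin genes Lamb1 and Lama1 rose by log2 changes of 1.87 ± 0.10 and 1.17 ± 0.17 (SE). Cubn, a receptor gene of that tissue, and the factor gene Gata4 were lower, by −0.50 and −0.43, and the call of Gata4 was lost 5 times when the 6 arrays were left out in turn. Cubn has a mean below the median gene level. Without miR-302 replicate 1, 7 of these markers were higher and 2 lower, and with another array left out 3 and 1.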
